A study of Ovis aries with 6 samples.

Results

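Cell division is driven by cyclin-dependent kinases, which are active only when bound to a cyclin and which are held back by dedicated inhibitor proteins. CDK1 (cyclin-dependent kinase 1) works with the A- and B-type cyclins and carries the cell into mitosis. CCND2 encodes cyclin D2, a partner of CDK4 and CDK6 in early G1, the phase before DNA synthesis. CDKN1C encodes p57, an inhibitor that binds cyclin-CDK complexes, restrains the cell cycle and is known for its part in cell cycle exit and for its parental imprinting. In skin, dividing cells are found in the basal epidermis and, during hair growth, in the matrix of the hair bulb, from which the wool fibre is formed.

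These 3 genes were described at 1 probe each among the 15008 probes of a sheep expression array: A_70_P047446 for CDK1, A_70_P004976 for CDKN1C and A_70_P005691 for CCND2. Each was printed as 1 spot. The probes of CDK1 and CDKN1C were named through their RefSeq accessions, while the symbol CCND2 came from the study's supplementary list of differing probes, since its probe carried only an expressed sequence tag. RNA came from full-thickness skin of the body side, about 1 cm2 per animal, of 3 Aohan fine wool animals and 3 of the small tail Han breed, each on an array of its own, all aged 12 months. The Aohan breed is kept for its fine wool and the small tail Han breed is known for its large litters, and the labels named no treatment. Each breed was sampled as 1 ram and 2 ewes that shared 1 sire, and which animal was the ram was not labelled, so sex could not enter the model. Breed and sire family cannot be told apart, and neither can breed and scan time, because the 3 arrays of each breed shared a scan time of their own.

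Values are log2 signals, that is, log2 of the background-corrected Cy3 intensity of a spot minus the array's 75th percentile. Those percentiles were 1747 to 2309 intensity units for small tail Han sheep, with 1103 to 2048 for Aohan sheep, and no spot was saturated. Differences are Aohan minus small tail Han, tested with limma over 12481 probes with Benjamini-Hochberg adjustment, and a probe passed at an adjusted p under 0.05. Probes differ in labelling and hybridisation, so a difference between the signals of 2 probes says nothing of their relative transcript levels, and such differences were only compared between sheep. Keratin genes of the hair follicle, KRT25 and KRT27, were well above background on all 6 arrays, with log2 signals of 7.52 to 8.57 and 7.22 to 8.15 at their brightest probes.

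CDK1 signal was higher in Aohan fine wool sheep, CDKN1C signal was lower, and the CCND2 difference, of 0.36 on the log2 scale, did not pass the test. Of the 3 genes, 2 passed, against 15.2% of all probes tested, where 7.57% were higher and 7.6% were lower. In all 3 genes the values of the breeds did not overlap, which held for 34.2% of all probes tested. The genes were picked with results of these arrays known, so these shares describe the genes and are no evidence that they stand apart. All 3 probes were well above background on all 6 arrays, with the median pixel of the spot between 10.7 and 62.9 times the local background.

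**Figure D1:**
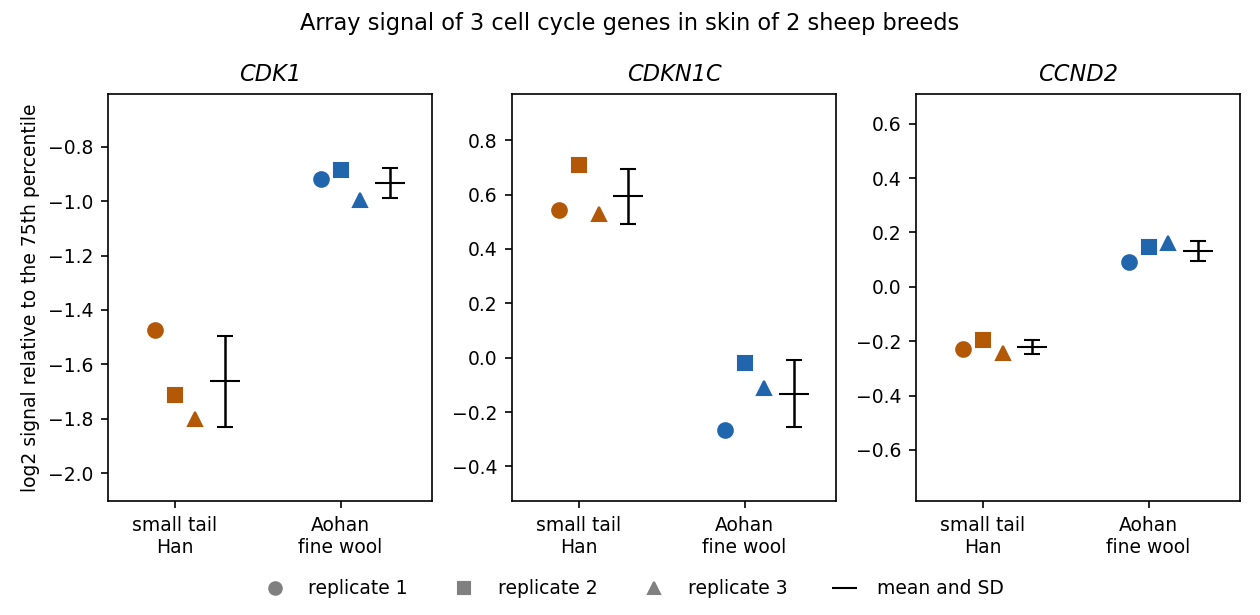
Log2 signal relative to the array's 75th percentile (vertical axis, the same span in each panel) of CDK1, CDKN1C and CCND2 in 3 small tail Han sheep (brown) and 3 Aohan fine wool sheep (blue). Symbols mark replicates, and black bars give the mean and SD of each breed (n = 3). The breeds are separated by 0.48 for CDK1, 0.55 for CDKN1C and 0.29 for CCND2.

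For CDK1, the mitotic kinase, log2 signals were -1.47, -1.71 and -1.80 in small tail Han replicates 1 to 3 and -0.92, -0.89 and -0.99 in Aohan replicates 1 to 3. All Aohan sheep were above all small tail Han sheep. The means were -1.66 ± 0.17 in small tail Han sheep, against -0.93 ± 0.06 in Aohan sheep (SD, n = 3 each). CDK1 rose by 0.73 on the log2 scale (SE 0.15, 95% interval 0.38 to 1.08), which is 1.66-fold (1.3 to 2.1), with a limma adjusted p of 0.0147. The processed intensities before scaling were 831, 561 and 502 in small tail Han sheep, against 584, 1108 and 568 in Aohan sheep, and these overlapped between the breeds. The call was lost without small tail Han replicate 2 (0.70, limma adjusted p 0.0785), without small tail Han replicate 3 (0.66, adjusted p 0.0740) and without Aohan replicate 3 (0.76, adjusted p 0.0537).

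For CDKN1C, the inhibitor, log2 signals were 0.54, 0.71 and 0.53 in small tail Han replicates 1 to 3 and -0.27, -0.02 and -0.11 in Aohan replicates 1 to 3. All Aohan sheep were below all small tail Han sheep. The means were 0.59 ± 0.10 and -0.13 ± 0.12 (SD, n = 3 each). CDKN1C decreased by 0.73 on the log2 scale (SE 0.14, 95% interval -1.05 to -0.40), which is 1.65-fold lower in Aohan sheep (1.32 to 2.07), with a limma adjusted p of 0.0115. Its processed intensities, at 3364, 3002 and 2521 in small tail Han sheep, against 918, 2019 and 1047 in Aohan sheep, were separated before any scaling. Without scaling, Aohan arrays were dimmer on average, with a median difference of -0.49 over all probes tested (2123 passing lower, 83 higher). That dimming widens a lower signal in Aohan sheep, as for CDKN1C, and narrows a higher one, as for CDK1. Only the omission of small tail Han replicate 2, among the 6 omissions of 1 array, ended the call (-0.67, limma adjusted p 0.0709).

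For CCND2, the G1 cyclin, log2 signals were -0.23, -0.19 and -0.24 in small tail Han replicates 1 to 3 and 0.09, 0.15 and 0.16 in Aohan replicates 1 to 3. Both breeds lay within narrow ranges that did not overlap. The means were -0.22 ± 0.03 and 0.13 ± 0.04 (SD, n = 3 each). The difference was 0.36 on the log2 scale (SE 0.13, 95% interval 0.06 to 0.65), or 1.28-fold (1.04 to 1.57), with an unadjusted p of 0.0237 and a limma adjusted p of 0.105, which did not pass. The SE of limma draws on the spread of all probes of like intensity, and the SE from the 6 CCND2 values alone was 0.03. With that SE, the methods' t-test gave the same difference a Benjamini-Hochberg adjusted p of 0.0193. That adjustment was other than the permutation-based one in the study's methods. For these values, whether CCND2 passed thus turned on the test used. Since the list that names this probe was selected on these arrays for differing between the breeds, neither test is independent evidence of its direction.

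A scaling that subtracts 1 constant per array cancels in the difference between 2 probes on the same array, so the kinase was also set against the inhibitor sheep by sheep. CDK1 minus CDKN1C was -2.02, -2.42 and -2.33 on the log2 scale in small tail Han replicates 1 to 3 and -0.65, -0.87 and -0.88 in Aohan replicates 1 to 3. The gap between the lowest Aohan and the highest small tail Han value was 1.13, larger than the SD within either breed (0.21 and 0.13, n = 3 each). The mean within-array difference was -2.26 in small tail Han sheep, against -0.80 in Aohan sheep, a shift of 1.45 log2 units that corresponds to a 2.74-fold higher CDK1 to CDKN1C intensity ratio in Aohan sheep. An exact two-sided permutation test over the 6 arrays gave p = 0.1, the smallest value that 20 splits of 3 against 3 arrays allow, so this design cannot reach 0.05. Every Aohan sheep was already higher in CDK1 and lower in CDKN1C, so their difference had to separate the breeds. This p was therefore fixed in advance and adds no evidence beyond the values of each gene. In scaled signal, CDK1 and CDKN1C contributed shifts of nearly the same size and of opposite sign.

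The cyclin was set against the kinase and the inhibitor in the same way. CDK1 minus CCND2 was -1.25, -1.52 and -1.56 in small tail Han replicates 1 to 3 and -1.01, -1.03 and -1.16 in Aohan replicates 1 to 3, so that the breeds were separated by only 0.09 log2 units. Its mean shifted by 0.37, a 1.30-fold change of the intensity ratio. CCND2 minus CDKN1C was -0.77, -0.90 and -0.77 in small tail Han sheep, against 0.36, 0.17 and 0.27 in Aohan sheep, a shift of 1.08, or 2.12-fold, with a gap of 0.94 between the breeds. Each of the 3 pairs had an exact permutation p of 0.1, and 0.1 after Benjamini-Hochberg adjustment over the 3 pairs. For CCND2 minus CDKN1C this too was fixed in advance, because both genes already separated the breeds, in opposite directions.

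**Figure D2:**
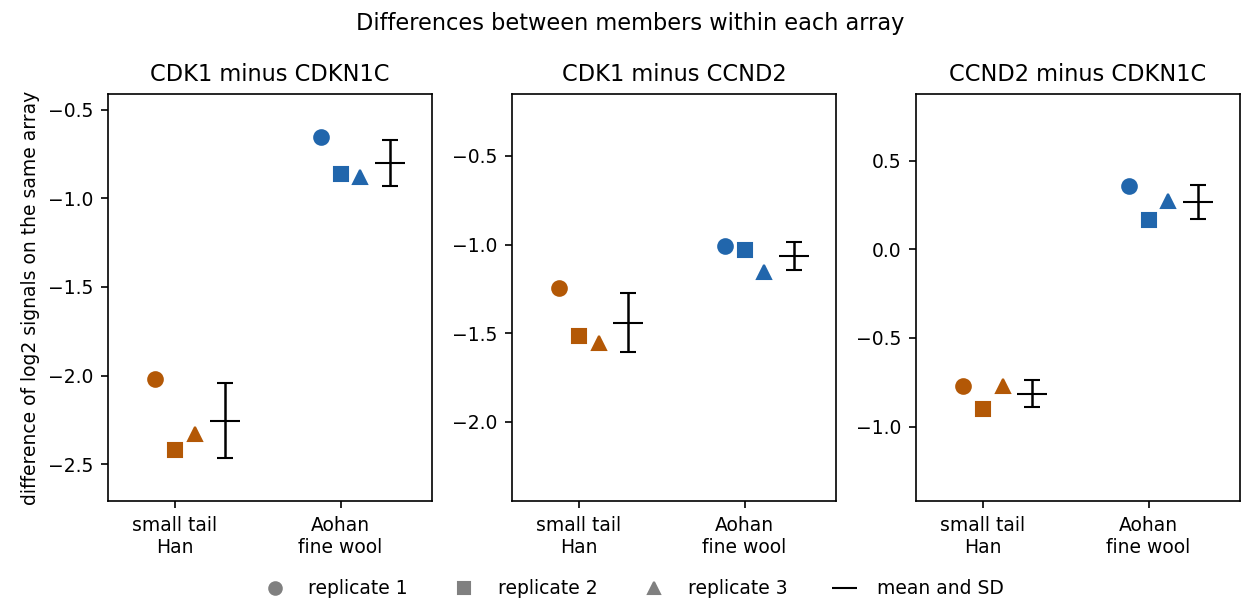
Difference between the log2 signals of 2 genes on the same array (vertical axis, the same span in each panel) for each sheep, by breed. Symbols mark replicates, and black bars give the mean and SD (n = 3). The breeds are 1.13 apart for CDK1 minus CDKN1C, 0.94 apart for CCND2 minus CDKN1C and 0.09 apart for CDK1 minus CCND2.

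The scanner software had applied a multiplicative surface correction, a smooth factor across the slide, to all 3 Aohan arrays but to only 1 of the small tail Han arrays (replicate 1). At the CDK1 spot the factor was 1.21 on small tail Han replicate 1 and 1.47, 1.22 and 1.31 on Aohan replicates 1 to 3. With the signal taken before this correction, CDK1 was -1.75, -1.71 and -1.80 in small tail Han sheep, against -1.44, -1.15 and -1.37 in Aohan sheep. The breeds still did not overlap, the difference was 0.43 (SE 0.15), and it no longer passed (limma adjusted p 0.0916). The SD was 0.15 in Aohan sheep and 0.04 in small tail Han sheep, the reverse of the order with the correction.

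The difference at the CCND2 spot was also smaller before the correction. Its factor was 1.09 on small tail Han replicate 1 and 1.37, 1.08 and 1.24 on Aohan replicates 1 to 3. Before the correction its log2 signals were -0.36, -0.19 and -0.24 in small tail Han sheep, against -0.34, 0.06 and -0.14 in Aohan sheep. These overlapped, and the difference was 0.13 (SE 0.15, limma adjusted p 0.617). The SDs were 0.20 in Aohan sheep and 0.08 in small tail Han sheep, against 0.04 and 0.03 with the correction. The methods' t-test was run only on corrected values.

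CDKN1C kept its call without the correction. The factor at its spot was 0.95 on small tail Han replicate 1 and 0.93, 0.95 and 0.97 on the Aohan arrays. The uncorrected difference was -0.65 (SE 0.14, limma adjusted p 0.0163), with no overlap. Without the correction the shifts of CDK1 (0.43) and CDKN1C (-0.65) were thus less alike in size. The within-array difference of CDK1 and CDKN1C also stayed apart, at -2.36, -2.42 and -2.33 in small tail Han sheep, against -1.31, -1.22 and -1.32 in Aohan sheep without the correction. Since neither gene overlapped between the breeds without the correction, this separation was again fixed in advance.

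**Figure D3:**
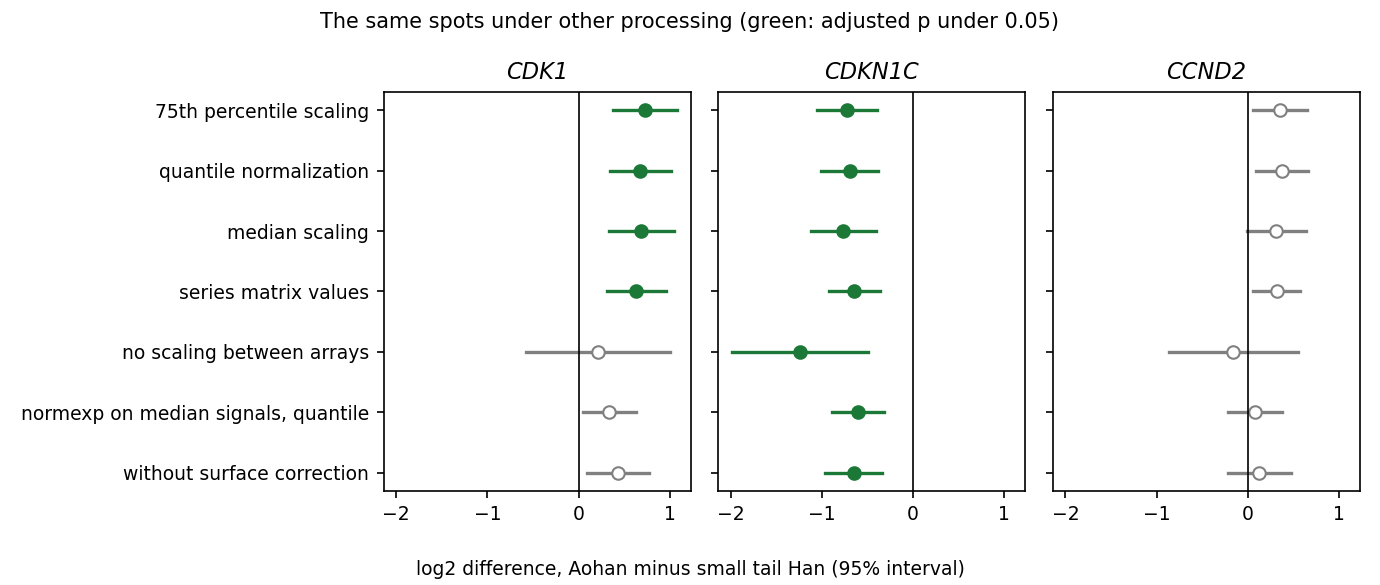
Breed difference on the log2 scale (horizontal axis, Aohan minus small tail Han, with its 95% interval from limma) of CDK1, CDKN1C and CCND2 under 7 ways of processing the same spots. Filled green points passed at an adjusted p under 0.05. CDKN1C passed in all 7, CDK1 lost its call without the surface correction (0.43), with normexp (0.34) and without scaling (0.22), and CCND2 passed in none and lay at -0.16 without scaling.

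Because a surface factor acts on all spots of a region, the breed difference of each gene was set against that of the other tested spots within 8 rows and 8 columns of it, a check chosen after the values were seen. Around CDK1, 172 spots had a median difference of 0.21 with the correction and -0.04 without it. CDK1 exceeded its surroundings by 0.52 with the correction and by 0.47 without it. A smooth factor moves a spot and the spots around it together, so this offset was bound to be nearly the same in both versions. Around CCND2, 229 spots had a median difference of 0.08 with and -0.15 without the correction, and CCND2 exceeded them by 0.28 in both versions. Around CDKN1C, 235 spots had medians of 0.02 and 0.12, and CDKN1C lay below them by an offset of -0.75 with and -0.77 without the correction. These offsets carry no test.

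**Figure D4:**
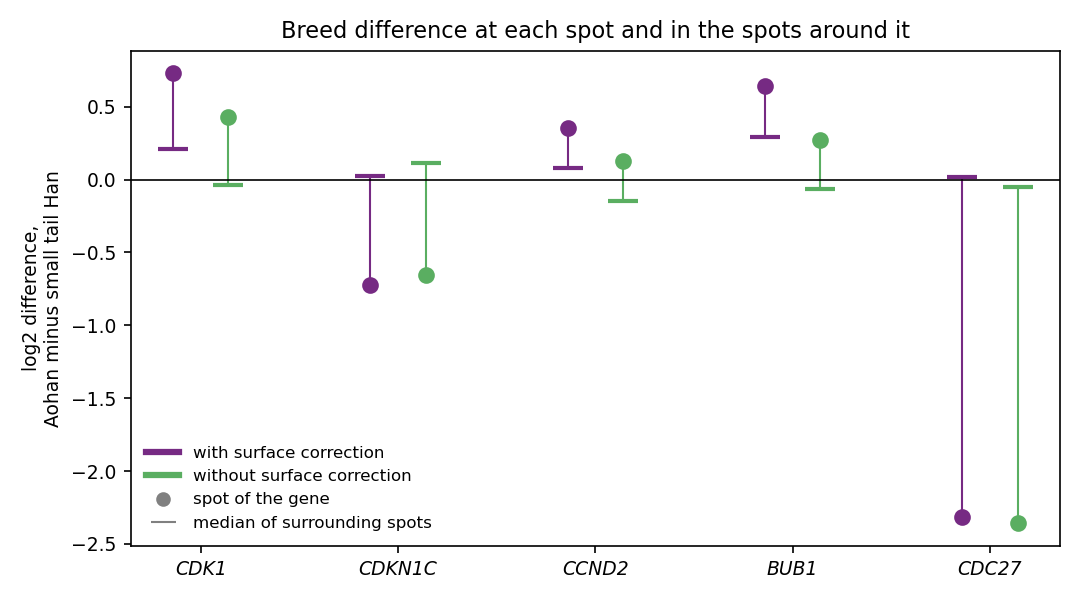
Breed difference on the log2 scale (vertical axis, Aohan minus small tail Han) at the spot of each gene (circles) and the median of the tested spots around it (dashes), with (purple) and without (green) the surface correction of the scanner software. The distance from dash to circle is 0.52 and 0.47 for CDK1, -0.75 and -0.77 for CDKN1C, 0.28 and 0.28 for CCND2, 0.35 and 0.33 for BUB1, and -2.33 and -2.31 for CDC27.

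Cell cycle genes, CDK1 and CDKN1C among them, were taken from a list of 130 symbols. Of these symbols 9 had a probe named by a RefSeq accession, and all 9 were tested. CDK1 was the 1 gene that rose and CDKN1C the 1 gene that fell, and the other 7 did not pass. Over the 9 genes the median difference was 0.01 on the log2 scale, against 0.02 over all probes tested, and 3 genes had no overlap between the breeds at their brightest probe (CDK1, CDKN1C and CDK5). Over all probes tested, 15.2% passed and 34.2% did not overlap, and 3 of 9 is close to the latter share. Both passes, and every case of no overlap at the brightest probe except CDK5, came from CDK1 and CDKN1C. These 2 genes were picked with results of these arrays known. The dimmer of 2 MYC probes, with values on 2 Aohan arrays, did not overlap either. The number of genes passing was 0 without small tail Han replicate 2 and 1 with either small tail Han replicate 3 or Aohan replicate 3 left out. No other cyclin and no gene of the DNA replication or mitosis lists could be counted, since none of them was named by a RefSeq accession on this array.

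Among the kinases, CDK2, which acts with cyclins E and A at the entry into S phase, had log2 signals of -1.90, -2.58 and -2.49 in small tail Han sheep, against -2.99, -2.44 and -2.78 in Aohan sheep. These overlapped, and the difference was -0.41 (SE 0.24, limma adjusted p 0.288). CDK4, the kinase partner of cyclin D2, had a difference of 0.06 (SE 0.16, 95% interval -0.31 to 0.43, limma adjusted p 0.849), with 1.12, 0.84 and 0.79 in small tail Han sheep, against 0.81, 1.17 and 0.94 in Aohan sheep. CDK5, a kinase best known from neurons and not a driver of the cell cycle, had -2.46, -2.77 and -2.48 in small tail Han sheep, against -2.35, -2.46 and -2.34 in Aohan sheep. Its breeds were apart by 0.01 log2 units and its difference of 0.19 did not pass (SE 0.17, limma adjusted p 0.505). Of the 4 named kinases, CDK1 was the 1 that passed.

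Upstream and checkpoint genes did not pass either. AURKA, the mitotic aurora kinase A, was a dim probe, well above background on 2 of 3 Aohan arrays and on all 3 small tail Han arrays, and its log2 signals overlapped (difference -0.69, SE 0.48, limma adjusted p 0.388). MYC, a transcription factor that promotes entry into the cycle, was measured by 2 probes, with differences of -0.22 (SE 0.17, limma adjusted p 0.416) and -0.53 (SE 0.25, adjusted p 0.201). The second MYC probe had values on 2 Aohan arrays, because its spot on Aohan replicate 3 carried an outlier mark and was left out. SFN, a 14-3-3 protein of keratinocytes, differed by 0.07 (SE 0.29, limma adjusted p 0.896).

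**Figure D5:**
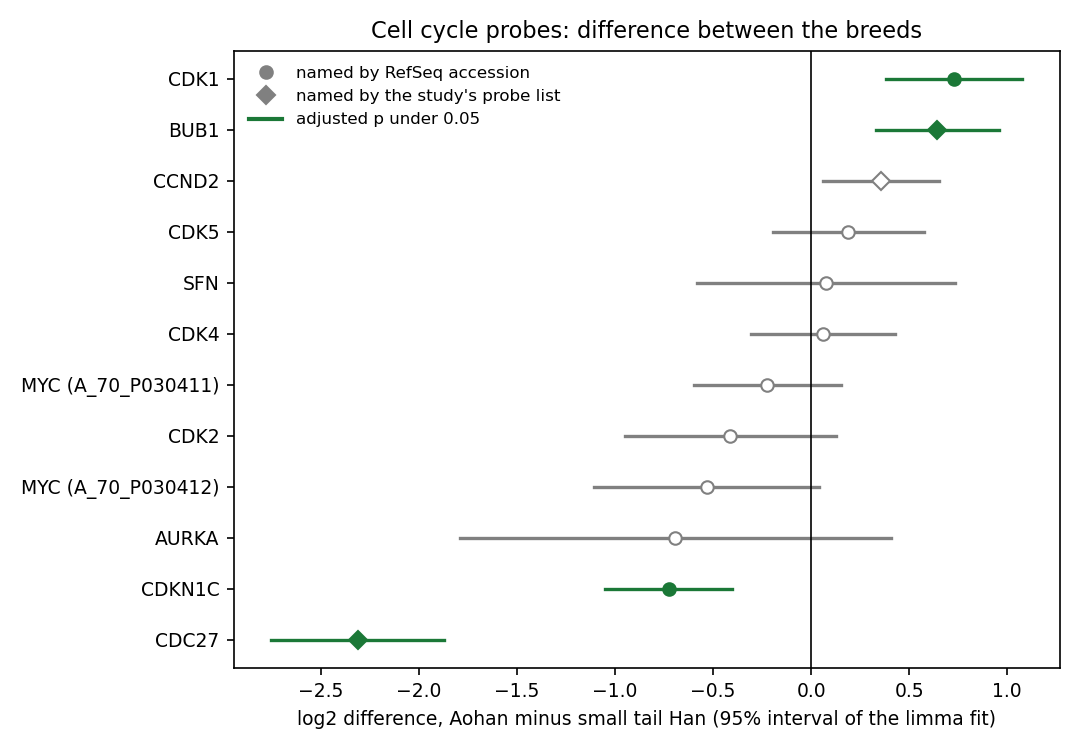
Breed difference on the log2 scale (horizontal axis, Aohan minus small tail Han) of the cell cycle probes named in the text with its 95% interval from limma. Circles were named by RefSeq accession and diamonds by the study's supplementary probe list, which was chosen for differing probes. Green marks an adjusted p under 0.05. Among the circles, CDK1 (0.73) lies above and CDKN1C (-0.73) below the rest.

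A pair of further cell cycle probes, for CDC27 and BUB1, was named only by the supplementary list. That list holds probes the study selected on these same arrays for differing between the breeds, so their differences are given as a description and were left out of the counts. CDC27, a subunit of the anaphase-promoting complex that marks mitotic proteins for degradation, had log2 signals of -2.18, -1.97 and -2.03 in small tail Han sheep, against -4.25, -4.25 and -4.62 in Aohan sheep. It was 4.97-fold lower in Aohan sheep (95% interval 3.67 to 6.73), a difference of -2.31 that was -2.36 without the surface correction. Its Aohan spots were dim, with median pixels of 2.8, 3.9 and 2.3 times the local background. With normexp the CDC27 difference was -1.51, so its size depended on the processing. BUB1, a kinase of the spindle checkpoint that delays anaphase, had 0.54, 0.53 and 0.46 in small tail Han sheep, against 1.27, 1.04 and 1.16 in Aohan sheep. Its difference of 0.64 (1.56-fold) became 0.27 without the surface correction, which had a factor of 1.29 on small tail Han replicate 1 and of 1.52, 1.38 and 1.41 on the Aohan arrays. BUB1 passed with the correction (limma adjusted p 0.0157), but not without it (adjusted p 0.267) or with normexp (0.31, adjusted p 0.122).

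In bulk skin, a change in the share of a cell type and a change in RNA per cell cannot be told apart. Markers of several skin cell types were therefore read from the same arrays. Those of keratinocytes (SFN), hair shaft (KRT25, KRT27 and KRT35), dermal fibroblasts (BGN and DCN), endothelium (EDN1 and SELE) and of sebocytes and adipocytes (4 tested genes, with SCD near background on all 6 arrays) had no member that passed. EDN1 (0.63, limma adjusted p 0.0950) and SELE (-0.39, adjusted p 0.229) did not overlap between the breeds, as held for 34.2% of all probes tested. PLIN1, an adipocyte marker, passed at 1 of its 2 probes without the surface correction (-0.81, limma adjusted p 0.0140) and with normexp (-0.69, adjusted p 0.00875). Its other probe did not (-0.09 and 0.05). The summed signal of the 3 hair shaft keratins was 9.04 to 9.56 on the log2 scale in small tail Han sheep, against 8.77 to 9.68 in Aohan sheep, so the ranges overlapped.

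Some immune cell markers passed, against the 7.57% of all probes tested that were higher in Aohan sheep. Of 6 T cell genes on the array 4 were tested, and 2 were higher in Aohan sheep, CD3D (0.92, SE 0.24, limma adjusted p 0.0362, with 0.73 and adjusted p 0.0880 at its other probe) and CD3E (1.11, SE 0.23, adjusted p 0.0135), both parts of the T cell receptor complex. LCK (0.34) and CD247 (0.37) did not pass, while CD28 did not exceed background clearly on any of the 6 arrays. The log2 of the summed T cell signal was 1.44 to 2.29 in small tail Han sheep, against 2.71 to 2.995 in Aohan sheep. Of 6 tested myeloid genes, 2 were higher, the integrin subunit ITGB2 (0.95, SE 0.18, limma adjusted p 0.0108) and the urokinase receptor PLAUR (1.36, SE 0.36, adjusted p 0.0364). PLAUR was well above background on only 4 of the 6 arrays. It did not pass without the surface correction (1.07, limma adjusted p 0.159) or with normexp (0.56, adjusted p 0.104). FCGR1A (0.55), ITGAM (0.88), CD14 (0.19 and -0.31 at its 2 probes) and TLR4 (-0.11) did not pass, and the myeloid sums were -0.02 to 0.11 in small tail Han sheep, against 0.50 to 0.82 in Aohan sheep. The muscle gene TNNC2 was lower at 1 of its 2 probes (-1.37, SE 0.32, limma adjusted p 0.0219). TYR of melanocytes did not pass at either probe (-0.68, SE 0.20, limma adjusted p 0.0511, and -0.09, adjusted p 0.871). Its first probe was borderline. It passed with quantile normalization (-0.73, limma adjusted p 0.0379) and normexp (-0.47, adjusted p 0.0447), but not without the surface correction (-0.55, adjusted p 0.0665). HBB of red blood cells (-0.83, SE 0.37, limma adjusted p 0.171) did not pass, and no listed B cell gene was named on the array. The part of these cell types in the CDK1, CDKN1C and CCND2 values was not tested.

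Genes with the most similar pattern to each gene were found among 366 RefSeq-named genes (506 probes) well above background on all 6 arrays, by the root mean square of the differences between profiles, each centred on its own mean over the 6 arrays. For CDK1 these were LOC443295, with a root mean square difference of 0.116 log2 units, TLR3, a sensor of double-stranded RNA (0.116), and RAN, a GTPase of nuclear transport (0.122). Their breed differences were 0.88, 0.66 and 0.51 on the log2 scale. For CDKN1C they were DBP, a transcription factor with circadian expression (0.0919), IRF2, an interferon regulatory factor (0.0994), and PYGB, a glycogen phosphorylase (0.103). Their breed differences were -0.74, -0.79 and -0.87. For CCND2 they were the integrin subunit ITGAV (0.0475), the death receptor FAS (0.0756) and the stress-response transcription factor ATF4 (0.0811). Their breed differences were 0.33, 0.38 and 0.27. These genes were picked for likeness over the same arrays, so their differences between the breeds are a description and carry no test.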

How the data were processed

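The authors hybridised 1 µg of total RNA per sheep, labelled with Cy3, to 1-colour Agilent arrays and deposited scanner tables in which each of 15744 spots has a background-corrected intensity, which per the file headers came from Agilent Feature Extraction (version 10.5.1.1), with no normalization between arrays. The authors also deposited a value table on a log2 scale, with a median of 8.31 in each of the 6 columns, in which the 3 genes had the same direction of difference as in the scanner values, while its normalization method was not given in the sources used here.

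Control spots (leaving 15208) and outlier-marked spots were left out, processed intensities were put on the log2 scale, spots of a probe were averaged and the 75th percentile of each array was subtracted. Probes that 3 or more of the 6 arrays measured well above background, and that had 2 or more values in each breed, were fitted with limma 3.58.1 in R 4.3.3 (breed as the only term, two-sided, intensity-trended empirical Bayes, Benjamini-Hochberg over 12481 probes). The number of arrays limits the precision. The script was tested on simulated data.

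RefSeq accessions were named through the sheep assembly ARS-UI_Ramb_v3.0 for 734 of 758 probes that carry one. The genes named are the 3 genes, the cell cycle genes so named, those named by the study's supplementary list, the 3 nearest profiles of each gene, and marker genes, which were limited to the 2 brightest per list except where a count needed its members named. The genes, lists and rules were chosen with earlier results of these data known. The result of 1 listed cell cycle gene is counted but not reported here by name. The planned count of cell cycle probes by their text descriptions was not run, and probe sequences were not used here. Alternatives were quantile and median scaling, normexp (offset 50, on median spot signals), the signal before surface correction, the deposited log2 values, other filters, no trend, a replicate block, the methods' t-test, no scaling, and leaving out each array. Plots used matplotlib 3.10.9 and Python 3.11.15.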

Additional observations from a re-analysis of the deposited data

How the results depend on the processing

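CDK1 kept its direction under all 17 alternatives. It no longer passed with normexp correction (0.34, limma adjusted p 0.107), without the surface correction (0.43, adjusted p 0.0916), with a replicate block (0.73, adjusted p 0.0576) and without scaling between arrays (0.22, adjusted p 0.692), an alternative added after the data were seen. Without scaling the median of all probes was -0.49, and relative to it CDK1 was at 0.70, CDKN1C at -0.75 and CCND2 at 0.33, while the CCND2 difference itself reversed to -0.16. Leaving out single arrays gave CDK1 0.66 to 0.82 (limma adjusted p 0.00948 to 0.0785) and CDKN1C -0.78 to -0.66 (adjusted p 0.0158 to 0.0709), the latter lost only without small tail Han replicate 2. CDKN1C passed under the other 11 alternatives (-1.24 to -0.61). CCND2 passed only with the methods' t-test (0.36, adjusted p 0.0193), and otherwise lay between -0.16 and 0.38.

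Of the listed cell cycle genes, 1 passed instead of 2 with normexp, without the surface correction and with the replicate block, and 0 to 2 passed when single arrays were left out. Without scaling 2 also passed, but CDK1 was not among them (limma adjusted p 0.692). Of all probes, 1893 passed, against 1234 with the replicate block and 712 with the methods' t-test (3234 at its unadjusted threshold), and 788 to 2248 without single arrays, with the low counts of 788, 943 and 1058 found without small tail Han replicate 2, small tail Han replicate 3 and Aohan replicate 3. The replicate numbers were not taken to pair the sheep. Same-numbered arrays had correlations of -0.22, -0.37 and 0.28 in their deviations from the breed mean, and differently numbered arrays had -0.30 to 0.47. Deviations of 3 arrays from their own mean cancel, so these correlations cannot decide whether the numbers pair the sheep. The within-array shifts of the 3 pairs kept their sign under every alternative run (CDK1 minus CDKN1C 0.94 to 1.57). In the replicate block the smallest exact p for a pair was 0.25. The normexp signals also lack the surface correction, so those alternatives are not independent of each other. The signal over background did not limit the 3 genes, but AURKA and, in Aohan sheep, CDC27 were near it.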
